A study of Mus musculus with 16 samples.

Results

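The mitochondrial ribosomal protein genes encode the protein part of the ribosome that works inside mitochondria. They were taken as every gene whose symbol starts with Mrpl or Mrps followed by a digit, a choice by name that used no measured value. This gave 76 of the 23420 gene names in each table, and all 76 had been tested in both. By the known place of each protein, 49 belonged to the large subunit and 26 to the small subunit. The remaining gene, Mrps36, carries the family name, but its protein is now assigned to the 2-oxoglutarate dehydrogenase complex. Mrps30 and Mrps18a carry names of the small subunit, but their proteins sit in the large one, and they were counted there.

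RNA-seq had been done on bone marrow progenitors of 40-week-old mice, sorted as lineage-negative, Kit-positive cells. Multipotent progenitors (MPP), which can still form several blood lineages, were Sca1+, CD48+ and CD150-, and granulocyte-monocyte progenitors (GMP), which are committed to granulocytes and monocytes, were Sca1-, CD150- and CD16/32+. Each population held 4 libraries labelled WT, whose genotype field reads Tet2fl/fl, and 4 labelled Tet2KO, whose genotype field reads Tet2-/-, with 1 mouse per library and, by matching mouse numbers in the labels, at least 3 mice per genotype common to both populations. No Cre driver for the Tet2KO group is given in the sources used here. Tet2 encodes an enzyme that oxidizes 5-methylcytosine in DNA.

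The authors' deposited tables give, per gene, a mean normalized signal over the 8 libraries of a population, the log2 ratio of Tet2KO to WT (log2 fold change), its standard error (SE), and a p-value from DESeq2 with its adjusted value. They give no values per library, so the spread within a group, the overlap of the groups and the weight of any 1 library could not be examined here, and depth per library is unknown. The direction of each change is the one that the names of the deposited tables give. Tet2, the targeted gene, was higher in the libraries labelled Tet2KO, by 0.44 on the log2 scale in MPP (SE 0.0992, adjusted p = 0.00551) and by 0.35 in GMP (SE 0.0748, adjusted p = 0.000409), by the authors' deposited tables. A value per gene includes exons outside a deleted part and so checks neither the labels nor the direction, and Tet2KO below means the libraries with that label. Of the markers of the sorts, Kit had means of 7542 in MPP and 6397 in GMP, and Cd48 had 1026 and 1270, by the authors' deposited tables. Cd34, not among the sort markers given above, had 5494 and 4299, and the GMP marker gene Fcgr3 had 19.3 and 525, by the authors' deposited tables. Ly6a, which encodes Sca1, had 266 in MPP and 19.5 in GMP, and the granule enzyme gene Mpo 23699 and 200049, by the authors' deposited tables. Both tables were normalized separately, so these means stand side by side without a test. In MPP, 4 of the 5 GMP markers, Mpo among them, were marked as outliers by the authors' deposited table and carry no p-value. The haemoglobin genes were at or near 0, and 0 of 7 erythroid markers in the tables passed the authors' filters for testing. In GMP, 1 of 4 tested GMP markers, the granule protease gene Ctsg, fell by 0.31 (adjusted p = 0.00434) by the authors' deposited table. Of 3 tested megakaryocyte markers, 1, Pf4, rose by 1.35 there (adjusted p = 0.00620). Itga2b and Gp9 had 0.11 and -0.34 (adjusted p = 0.725 and 0.699). Over all tested genes in GMP, 3.96% had an adjusted p under 0.05. In MPP, Pf4 had -0.92, Itga2b 0.44 and Gp9 0.06 by the authors' deposited table (adjusted p = 0.366, 0.148 and 0.977). The means of the 3 megakaryocyte markers ran from 10.6 to 279 in GMP, and the part of such cells in the values below was not tested. In bulk RNA, fewer cells of a type and less RNA per cell cannot be told apart.

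Mitochondrial ribosomes translate the few proteins encoded by the mitochondrial genome, all of them core parts of the oxidative phosphorylation complexes. Their RNA is encoded in the mitochondria, whereas all their proteins are encoded in the nucleus, made in the cytosol and imported. Loss of a single ribosomal protein of this kind can stop respiration, and blood stem cells are known to turn more to mitochondrial respiration as they differentiate.

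Promoters are shown for the 3 genes with the smallest p in either population, Mrpl18, Mrpl2 and Mrpl21, since genes of this family were low together and promoters of nuclear genes for mitochondrial proteins are known for binding sites of the factors NRF1, GABP (an ETS factor) and YY1. Each sequence runs from 250 bases before to 50 bases after the gene's start in RefSeq (mm10), 5′ to 3′ on the strand of the gene, and capitals mark a match to a motif searched here. The regions were chr17:12916042-12916341 on the minus strand for Mrpl18, chr17:46645971-46646270 on the plus strand for Mrpl2 and chr19:3282792-3283091 on the plus strand for Mrpl21.
Mrpl18: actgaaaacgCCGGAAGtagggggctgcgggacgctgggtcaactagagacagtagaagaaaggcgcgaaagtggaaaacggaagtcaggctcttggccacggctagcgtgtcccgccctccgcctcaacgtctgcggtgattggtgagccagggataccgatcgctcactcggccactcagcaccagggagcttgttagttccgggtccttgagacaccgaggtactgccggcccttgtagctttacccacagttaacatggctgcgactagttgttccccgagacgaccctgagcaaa
Mrpl2: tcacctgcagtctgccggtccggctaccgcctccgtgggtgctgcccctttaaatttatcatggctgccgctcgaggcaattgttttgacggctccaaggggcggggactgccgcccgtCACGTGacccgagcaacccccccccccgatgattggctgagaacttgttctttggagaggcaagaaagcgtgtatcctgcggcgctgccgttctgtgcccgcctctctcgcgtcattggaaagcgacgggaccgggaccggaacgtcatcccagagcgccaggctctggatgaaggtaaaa
Mrpl21: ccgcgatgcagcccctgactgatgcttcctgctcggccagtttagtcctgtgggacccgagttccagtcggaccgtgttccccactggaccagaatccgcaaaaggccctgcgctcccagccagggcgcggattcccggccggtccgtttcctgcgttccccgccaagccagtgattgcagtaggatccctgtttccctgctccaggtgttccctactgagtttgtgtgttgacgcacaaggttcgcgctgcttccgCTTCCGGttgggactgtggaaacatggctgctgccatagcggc
The Mrpl18 and Mrpl21 regions held the ETS core, at position -240 in Mrpl18 and, read on the other strand as CTTCCGG, at position 7 in Mrpl21. The Mrpl2 region held the E-box at position -131, the core to which MYC and other E-box factors bind. Positions count from the RefSeq start, which can differ from the outermost start in the GENCODE annotation of mm10. In that annotation Mrpl18 starts at 12916345 on the minus strand, so its whole printed region lies inside the annotated gene. Its ETS match thus lies after the GENCODE start. Mrpl21 starts at 3282901 in that annotation, inside its printed region and before the RefSeq start. A match is only a description of the letters.

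A RefSeq promoter was matched for 67 of the 76 genes, and all were searched on both strands for 4 motifs. The ETS core (CCGGAAG) was in 34.3% of the 67, against 18.8% of 9109 promoters of tested genes and 9.12% of all 27025 promoters in the table. The YY1 core (AAGATGGC) was in 17.9% of them, against 4.84% of tested genes. The NRF1 core (GCGCATGC) was in 11.9% against 5.77%, and the E-box (CACGTG) in 7.46% against 10.4%. A promoter could hold more than 1 motif, and the median GC content was 58% in the members and 60.7% in tested genes. The 23 genes with the ETS core had a median log2 fold change of -0.20 in MPP and -0.08 in GMP, and the 44 without it had -0.09 and -0.06. Of these, 21 of 23 with the core and 34 of 44 without it lay below 0 in MPP, and 14 of 23 and 30 of 44 in GMP. For the YY1 core the medians were -0.11 with it and -0.10 without it in MPP, and -0.0095 and -0.08 in GMP, where 6 of 12 with the core lay below 0. For the NRF1 core they were -0.12 and -0.10 in MPP and -0.04 and -0.07 in GMP, and for the E-box -0.19 and -0.10 in MPP and -0.18 and -0.06 in GMP. In MPP the median was lower with the motif than without it for all 4 motifs. In GMP it was lower with the ETS core and the E-box, and higher with the YY1 and NRF1 cores. No such difference was tested.

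The genes were expressed at moderate levels. Divided by exon length, the mean normalized signal per kilobase had a median of 77.1 in MPP, against 63.7 for the other tested genes, and of 93.8 in GMP, against 69.5. No level is tested across the populations. Within the family they ran from 3.66 (Mrpl23) to 511 (Mrpl18) in MPP and from 3.99 to 817, for the same pair of genes, in GMP. Mrpl18, Mrpl34 and Mrpl36, all large-subunit genes, were the 3 highest in both populations, followed by Mrpl50. Mrpl23 and Mrpl48 were the lowest in both. The exon length sums every annotated exon, which lowers the value of genes with long, rarely used exons, and with the longest transcript in its place the family's median was 103 in MPP and 131 in GMP. Large-subunit genes had a median of 83.2 in MPP and 103 in GMP, and small-subunit genes 57.3 and 74.1. Not divided by length, the means of the family ran from 17.9 (Mrpl23) to 714 (Mrpl18) in MPP and from 19.5 to 1143 in GMP. After Mrpl18, the highest means in MPP were those of Mrps2 (585), Mrpl19 (584), Mrps14 (572) and Mrpl17 (552), and their log2 fold changes of -0.07, -0.03, -0.25 and 0.04 did not pass the test, by the authors' deposited table. In GMP they were those of Mrps14 (810), Mrpl19 (810), Mrpl30 (780.0) and Mrps2 (750.3), with log2 fold changes of -0.11, -0.04, -0.01 and 0.11 by the authors' deposited table. The lowest means after Mrpl23 were those of Mrps36 (37.8), Mrps34 (54.6), Mrpl22 (59.0) and Mrps18b (63.8) in MPP, and of Mrps36 (57.4), Mrpl14 (72.2), Mrps34 (76.5) and Mrps33 (83.8) in GMP, by the authors' deposited tables. Of these, Mrps34 had log2 fold changes of -0.24 in MPP and -0.20 in GMP, Mrpl22 of -0.33 in MPP, and Mrpl14 and Mrps33 of -0.05 and 0.15 in GMP, by the authors' deposited tables, and none passed the test. Mrps34 shares 63.4% of its exon bases with Mapk8ip3 on the opposite strand and 37.0% with Nme3 on the same strand. The part of such overlap in its values was not tested. All 76 genes together made up 0.183% of the summed signal in MPP and 0.209% in GMP.

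**Figure D1:**
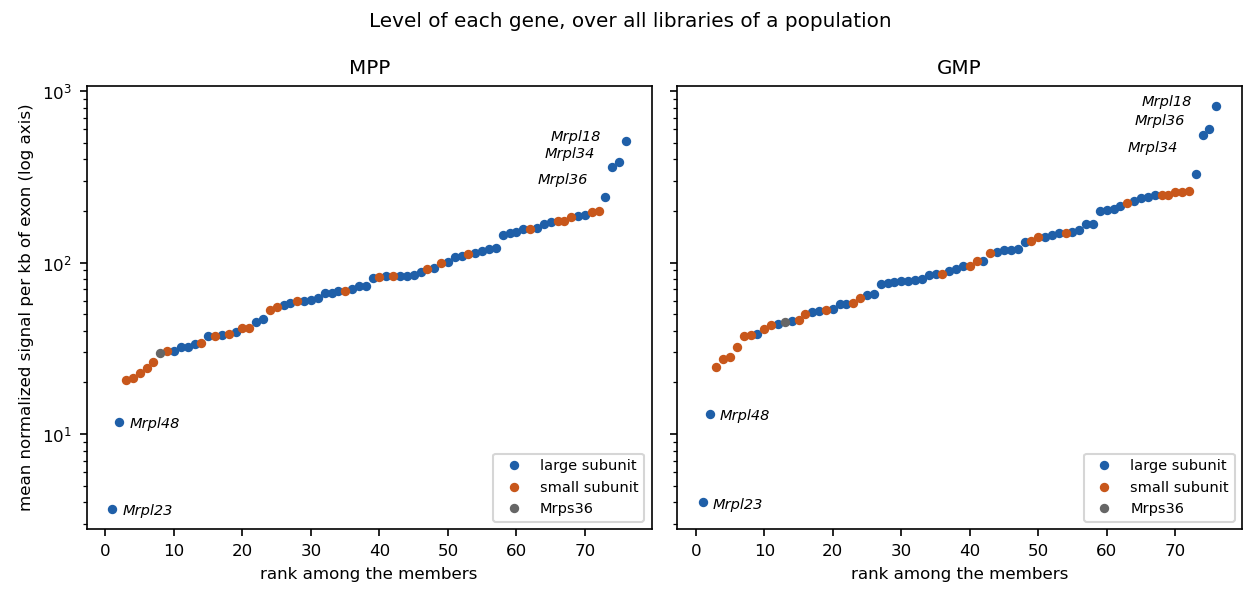
Mean normalized signal per kilobase of exon (log axis) of each of the 76 genes, ranked within MPP (left) and GMP (right); points are single genes, coloured by subunit. Mrpl18 is highest in both (511 and 817) and Mrpl23 lowest (3.66 and 3.99).

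In MPP, the family lay below 0 as a group, while no single gene passed the test. Of the 76 genes, 63 (82.9%) had a negative log2 fold change, against 50.9% of the 11859 tested genes and 52.8% of the 5663 other genes of similar mean, those with a mean between the 5th and 95th percentiles of the family. The median log2 fold change was -0.11, a fold of 0.925 for Tet2KO over WT, with quartiles at -0.20 and -0.04. Genes of similar mean had a median of -0.01, and all tested genes of -0.0038. Divided by its SE, the family's median was -0.627, against -0.0764 for genes of similar mean.

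No member was called in MPP at the authors' adjusted p of 0.05, a threshold that 0.616% of tested genes passed in either direction and 0.27% in the direction lower in Tet2KO. At the median SE of the family, 0.179, a log2 fold change of about 0.65 would have been needed, and the largest in size was 0.55. At an unadjusted p of 0.05, 5 members (6.58%) lay lower, against 4.8% of all tested genes, and 1 (1.32%) lay higher, against 4.92%. The low position of the group rests on many small values on 1 side, and the share of members with a small p was near the background.

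The 5 lowest p-values below 0 in MPP came from both subunits. Mrpl21, which has a counterpart in the bacterial large subunit, had the most negative value of the family, -0.55 (SE 0.189, unadjusted p = 0.00351, adjusted p = 0.194) by the authors' deposited table, from a mean of 167. Its value in GMP was -0.08 (SE 0.147) by the authors' deposited table. The small-subunit genes Mrps28 and Mrps23 had values of -0.37 in MPP (adjusted p = 0.451 and 0.453) by the authors' deposited table. The large-subunit genes Mrpl54, specific to mitochondria, and Mrpl33, with a bacterial counterpart, had values of -0.41 and -0.32 (adjusted p = 0.486 and 0.465) by the authors' deposited table. On the other side stood Mrpl38, a mitochondria-specific large-subunit gene with the highest value of the family, 0.45 (SE 0.200, adjusted p = 0.411), by the authors' deposited table. Mrpl1 (0.23), Mrpl47 (0.34), Mrps15 (0.16) and Mrps25 (0.14) came next above 0 in order of p by the authors' deposited table, with adjusted p-values from 0.530 to 0.896. None of these values passed the test.

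In GMP, the family again lay below 0, with a smaller majority, and 1 gene passed the test. Of the 76 genes, 52 (68.4%) had a negative log2 fold change, against 49.9% of 11503 tested genes and 51.3% of the 5550 other genes of similar mean. The median was -0.08, a fold of 0.948, with quartiles at -0.16 and 0.01, against -0.0051 for genes of similar mean and 0.00025 for all tested genes. Divided by its SE, the median was -0.687, against -0.0414 for genes of similar mean. The SEs were smaller than in MPP, with a family median of 0.129, so that a log2 fold change of about 0.40 was needed at that SE and 0.21 at the family's smallest.

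The called gene was Mrpl18, whose protein is the counterpart of the bacterial protein that binds 5S ribosomal RNA. It fell by 0.25 on the log2 scale (SE 0.0692, 95% interval -0.385 to -0.114, adjusted p = 0.0153) by the authors' deposited table, where its rank by p was 235. With an empirical null, which rescales the statistic by its spread over all tested genes, its adjusted p was 0.375 and the call was lost. It had the highest mean of the family in GMP, 1143, and with it nearly the smallest SE. In MPP its value was -0.29 (SE 0.162, adjusted p = 0.564) by the authors' deposited table, with an interval from -0.61 to 0.03. A single call among 76 is to be read against the 3.96% of all tested genes that were called in GMP, 2.22% in the direction lower in Tet2KO. Mrpl18 lies on chromosome 17 at 12911349 to 12916345 (mm10), on the minus strand, and shares 141 bases of exon with Tcp1, a chaperonin subunit gene on the opposite strand. Tcp1 had a mean of 4923 in GMP and a value of -0.20 (SE 0.0761, adjusted p = 0.119) by the authors' deposited table. Whether the authors counted reads by strand is not given in the sources used here, so reads from the shared bases cannot be assigned to 1 of the genes, and their part in the fall of Mrpl18 was not tested.

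At an unadjusted p of 0.05, 9 members (11.8%) lay lower in GMP, against 8.68% of all tested genes, and 0 lay higher, against 7.73%. After Mrpl18 came Mrpl2, whose bacterial counterpart lies beside the peptidyl transferase centre, with -0.42 (SE 0.143, adjusted p = 0.0665), the most negative value of the family in GMP, by the authors' deposited table. Mrps28 followed with -0.35 (SE 0.132, adjusted p = 0.115), Mrpl13 with -0.26 (SE 0.106, adjusted p = 0.148) and Mrps23 with -0.32 (SE 0.141, adjusted p = 0.197) by the authors' deposited table. The other 4 were Mrpl46 (-0.34), Mrpl44 (-0.27), Mrpl12 (-0.26) and Mrpl41 (-0.26) by the authors' deposited table; apart from Mrpl12, they are named outside the rule, after their values were seen. Above 0, the smallest p was that of Mrpl55, with 0.27 (SE 0.164, adjusted p = 0.415), also the highest value, by the authors' deposited table. Next in order of p were Mrpl39 (0.15), Mrpl42 (0.13), Mrps5 (0.16) and Mrps2 (0.11) by the authors' deposited table. None of these other genes passed the test in GMP.

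**Figure D2:**
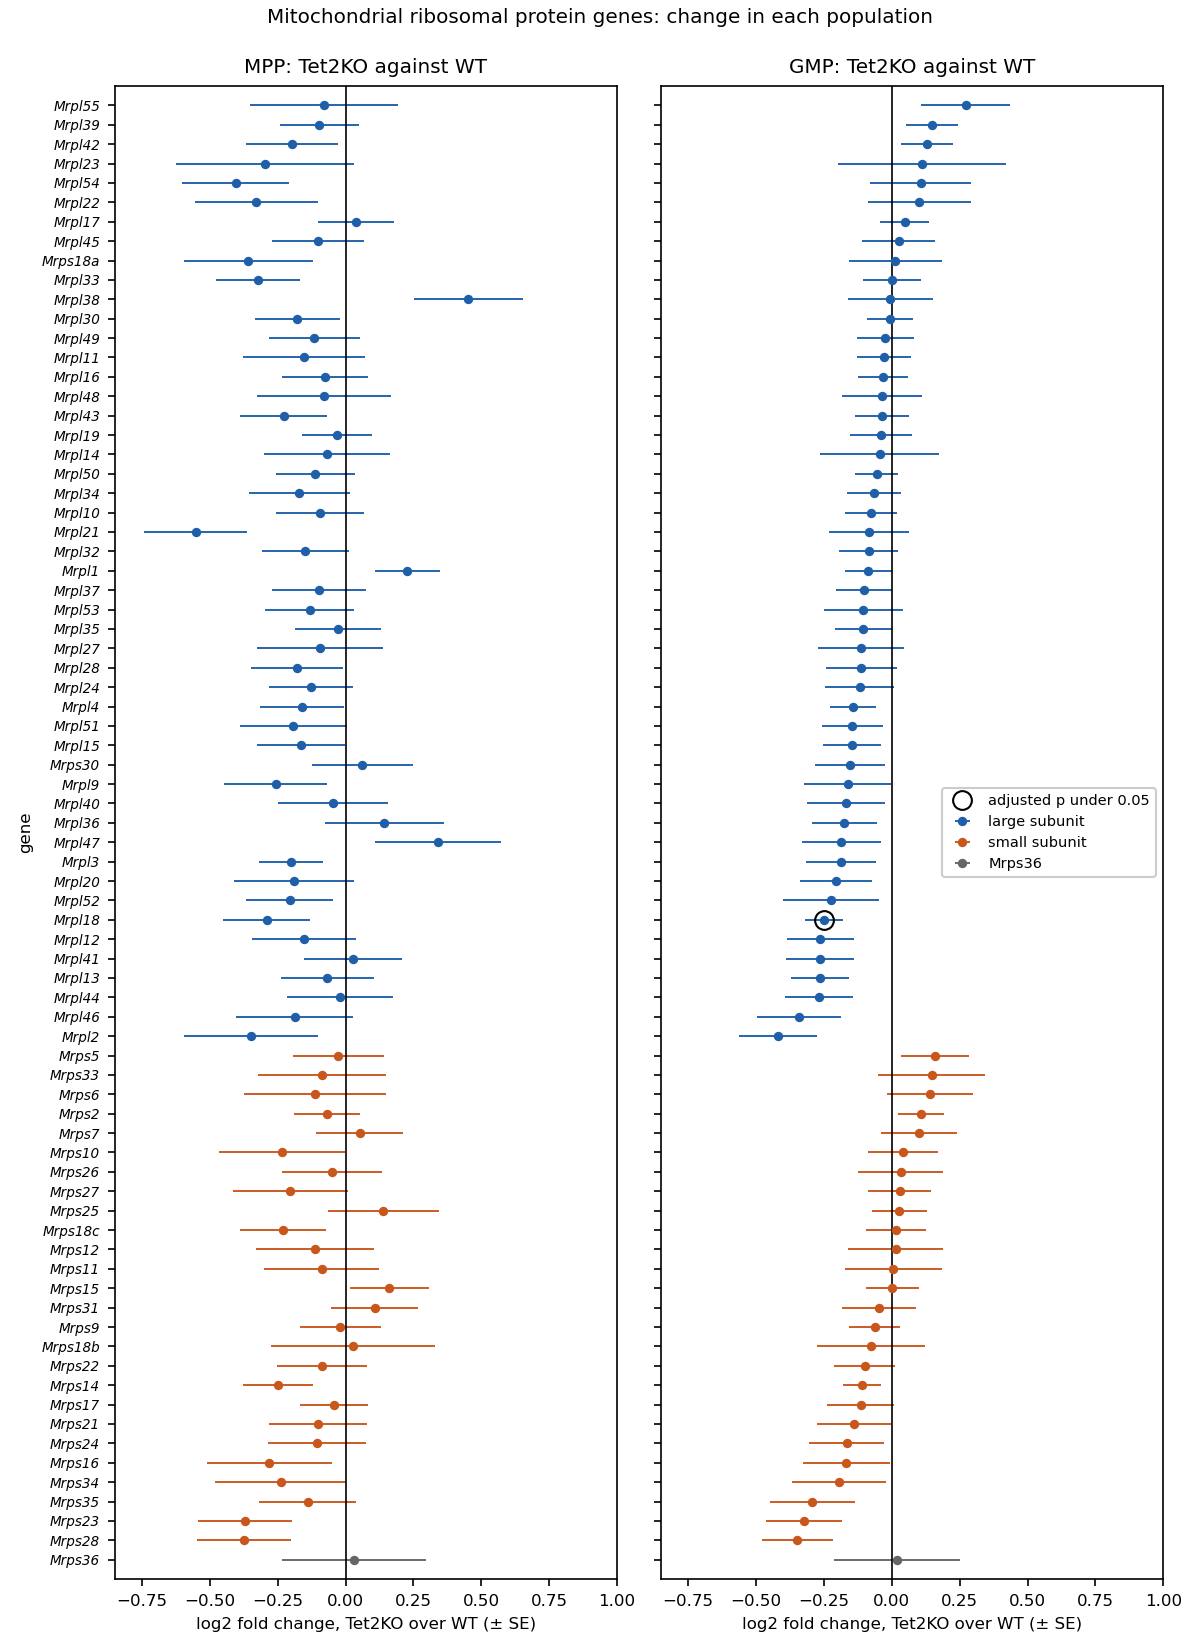
Log2 fold change of Tet2KO over WT for each of the 76 genes in MPP (left) and GMP (right), with bars of 1 SE from the authors' deposited tables, grouped by subunit and ordered by the GMP value. Most points lie left of 0 (63 in MPP, 52 in GMP), and only Mrpl18 in GMP, ringed, passed an adjusted p of 0.05.

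Within the ribosome, large-subunit genes lay below 0 in most cases in both populations, and small-subunit genes did so in MPP. Of 49 large-subunit genes, 42 lay below 0 in MPP (median -0.13) and 39 in GMP (median -0.09). Of 26 small-subunit genes, 21 lay below 0 in MPP (median -0.10), and 13 in GMP (median -0.02). Within the large subunit, 26 of 30 genes with a bacterial counterpart and 15 of 18 specific to mitochondria lay below 0 in MPP, and 25 of 30 and 14 of 18 in GMP. In the small subunit, 13 of 15 with a bacterial counterpart and 7 of 9 specific to mitochondria lay below 0 in MPP, and 7 of 15 and 5 of 9 in GMP. No difference between subunits or classes was tested.

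The 3 genes of the stalk that receives translation factors on the large subunit, Mrpl10, Mrpl11 and Mrpl12, had values of -0.09, -0.15 and -0.15 in MPP and -0.08, -0.03 and -0.26 in GMP by the authors' deposited tables. Mrpl12 encodes the flexible, multi-copy arm of that stalk, and its adjusted p in GMP was 0.250 by the authors' deposited table. Mammals have 3 versions of the protein S18. Their genes Mrps18a, Mrps18b and Mrps18c had values of -0.36, 0.03 and -0.23 in MPP and 0.01, -0.08 and 0.01 in GMP by the authors' deposited tables, all with adjusted p-values above the threshold. Mrps36, of the dehydrogenase complex, had values of 0.03 and 0.02 by the authors' deposited tables, with SEs of 0.267 and 0.233.

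The plot of cumulative distributions sets the statistic of the family beside other genes. In both populations the family's curve runs to the left of the curve of genes of similar mean from the lower tail's inner part through the middle, and the curves meet in the far lower tail. Below -2 lay 6.58% of members in MPP, against 4.66% of genes of similar mean, and 11.8% in GMP, against 7.82%. Above 1 lay 5.26% of members in MPP, against 17.8%, and 6.58% in GMP, against 21.7%. At the matching cuts, 28.9% of members lay below -1 in MPP, against 20.6%, and 34.2% in GMP, against 23.0%. Above 2 lay 1.32% of members in MPP, against 4.34%, and 0% in GMP, against 7.33%. At both cuts the share of members was thus smaller above 0 and larger below 0 than that of genes of similar mean. No such difference was tested.

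**Figure D3:**
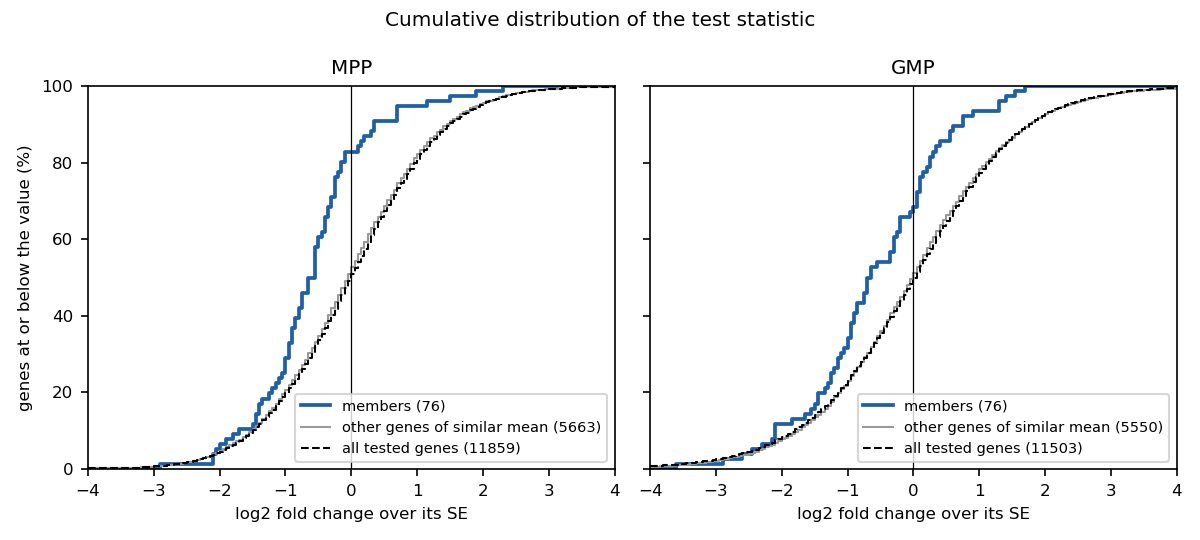
Cumulative share of genes (%) by the log2 fold change over its SE in MPP (left) and GMP (right), for the 76 members (blue), other genes of similar mean (grey) and all tested genes (dashed). At 0 the curve of the members stands at 82.9% in MPP and 68.4% in GMP, and that of genes of similar mean at 52.8% and 51.3%.

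By expression level, the members with a mean of 50 to 100 in GMP did not lie below 0 in most cases. Split at the members' median mean in GMP, 25 of the lower 38 lay below 0 (median -0.11) and 27 of the upper 38 (median -0.06). In MPP, 14 of 15 genes with a mean of 50 to 100 lay below 0, as did 24 of 27 from 100 to 200, 18 of 25 from 200 to 500 and 6 of 7 from 500 to 1000. In GMP, 3 of 11 genes with a mean of 50 to 100 lay below 0, against 39.6% of other genes in that range. From 100 to 200 the count was 14 of 17 (others 47.0%), from 200 to 500 it was 26 of 34 (52.3%) and from 500 to 1000 it was 8 of 12 (57.5%). The members also have short transcripts, with a median exon length of 2214 bases against 4488 for other tested genes in MPP. Among other genes of similar mean whose exon length lay between the quartiles of the family, 1453 to 4311 bases, 56.1% of 2701 in MPP and 56.7% of 2450 in GMP lay below 0, with medians of -0.03 and -0.02. The members' median minus that of such genes was -0.08 in MPP and -0.05 in GMP, a comparison chosen after the data were seen.

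No member passed the test of a difference in change between MPP and GMP. Of the 17660 genes that had p-values in MPP and GMP, 8 (0.0453%) passed it, and 0 of the 76 were among them, with a smallest adjusted p of 0.9999 (difference of the log2 fold changes over its combined SE, Benjamini-Hochberg adjustment). At an unadjusted p of 0.05 there was 1 member of the 76, Mrpl1, whereas 3.58% of the 17660 genes passed that level. The protein of Mrpl1 forms the mobile stalk beside the tRNA exit site of the large subunit. Mrpl1 had 0.23 in MPP and -0.09 in GMP by the authors' deposited tables, a difference of -0.31 (SE 0.148, unadjusted p = 0.0345). Mrpl47 (difference -0.52, SE 0.273) and Mrpl38 (-0.46, SE 0.254) were also lower in GMP than in MPP without passing the test. The largest statistics in the other direction were those of Mrpl21 (0.47, SE 0.239), Mrpl54 (0.51, SE 0.272) and Mrpl33 (0.33, SE 0.188). The errors were treated as independent although mice are shared. SEs of this size leave room for differences between populations that the test could not detect.

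**Figure D4:**
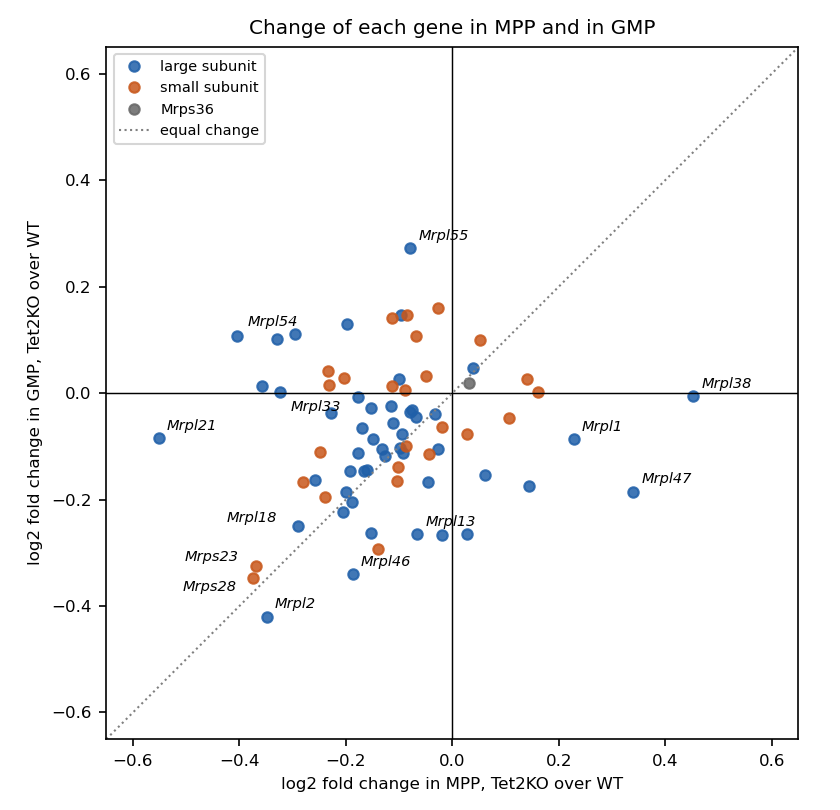
Log2 fold change of each of the 76 genes in MPP (horizontal) and GMP (vertical), coloured by subunit, with a dotted line of equal change. Mrps28, Mrps23, Mrpl2 and Mrpl18 lie low on both axes, Mrpl21 and Mrpl54 low in MPP and nearer to 0 in GMP, and Mrpl38 and Mrpl47 above 0 in MPP and at or below 0 in GMP; no member's difference passed the test.

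Many members share a start region with another gene. In the GENCODE annotation of mm10, 31 of the 76 (40.8%) had the start of a coding gene on the opposite strand within 1000 bases, against 16.6% of the tested coding genes in MPP. Among the 30 such neighbours that had been tested, 19 lay below 0 in MPP (median -0.05) and 18 in GMP (median -0.03), and 0 were called; the members beside them lay below 0 in 25 and 23 of the same 30 pairs. The pair Mrpl46 and Mrps11 is counted from both sides. Exon bases overlapped another annotated gene for 32 members. The largest shares of a member's exon bases were 88.0% in Mrpl53, 69.8% in Mrps25 and 63.4% in Mrps34. The 44 members without such overlap had 37 values below 0 in MPP (median -0.11) and 28 in GMP (median -0.06). The family lies on 17 chromosomes, so its members are not neighbours of one another as a rule. In the annotation 3 members, Mrpl23, Mrpl48 and Mrps36, have pseudogenes named after them with the ending -ps. Reads of these genes could have been split or lost in counting. Pseudogene copies under other names were not searched for.

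Other genes of mitochondrial translation were taken from lists by function. Among 7 subunits of the same ribosome whose symbols do not start with Mrpl or Mrps and a digit, 2 lay below 0 in MPP (median 0.02) and 5 in GMP (median -0.02), and 0 were called. Dap3, a GTP-binding protein of the small subunit, had values of 0.06 in MPP and -0.17 in GMP, and Mrp63, a large-subunit gene, had -0.20 and -0.02, by the authors' deposited tables. Aurkaip1 had -0.16 in MPP, Ptcd3 -0.07 in GMP, and Ict1, a peptidyl-tRNA hydrolase built into the large subunit, 0.11 and -0.06, by the authors' deposited tables. Most of these subunits lay above 0 in MPP, where most members lay below it, and this difference was not tested.

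Factors that assemble the ribosome or modify its RNA lay on both sides, with 14 of 24 below 0 in MPP (median -0.08) and 11 of 24 in GMP (median 0.01), and 0 called. Gtpbp10, a GTPase of large-subunit assembly, had the smallest p in MPP, with 0.30 (adjusted p = 0.627), and Mterfd2, which works with a methyltransferase of the ribosomal RNA, in GMP, with 0.28 (adjusted p = 0.428), by the authors' deposited tables. Rpusd3, a pseudouridine synthase family gene, had -0.47 in MPP and 0.44 in GMP by the authors' deposited tables, with adjusted p-values of 0.693 and 0.442. Ddx28, an RNA helicase, had -0.35 in MPP, and Rnmtl1, a methyltransferase of the large ribosomal RNA, -0.27 in GMP, by the authors' deposited tables. Of 15 translation factors 7 lay below 0 in MPP and 10 in GMP. Gfm2, which splits the ribosome for recycling, rose in GMP by 0.34 (SE 0.0928, adjusted p = 0.0140), and its value in MPP was 0.22 (SE 0.162, adjusted p = 0.714), by the authors' deposited tables. Tufm, the elongation factor that brings aminoacyl-tRNA to the ribosome, had -0.27 in GMP (SE 0.133, adjusted p = 0.291) by the authors' deposited table. Taco1, a translational activator, had -0.26 and the release factor gene Mtrf1l -0.15 in MPP, and Oxa1l, which inserts new proteins into the inner membrane, -0.09 in GMP, by the authors' deposited tables.

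The mitochondrial transcription and replication list had 4 of 8 genes below 0 in each population and 0 called. The RNA polymerase gene Polrmt had -0.29 in GMP (adjusted p = 0.177), and the DNA polymerase genes Polg and Polg2 had -0.29 and 0.41 (adjusted p = 0.186 and 0.181) by the authors' deposited table. In MPP the smallest p-values were those of Polg2 (0.35), Tfam, which packages mitochondrial DNA (-0.12), and Polg (-0.19), by the authors' deposited table. Among nuclear regulators of mitochondrial genes, 5 of 10 lay below 0 in MPP and 4 of 8 tested in GMP, and 0 were called. In MPP, Myc had 0.20 (adjusted p = 0.535), the coactivator gene Ppargc1a -0.52 (SE 0.288, adjusted p = 0.555) and Gabpb2, a GABP subunit gene, 0.09 by the authors' deposited table. Myc had 0.26 in GMP (SE 0.108) but was marked as an outlier and carries no p-value, by the authors' deposited table. Ppargc1a was too low to be tested in GMP. There, the related coactivator gene Ppargc1b had 0.28 (adjusted p = 0.283), Yy1 -0.11 (adjusted p = 0.358) and Esrra, a nuclear receptor gene, -0.34 (adjusted p = 0.449) by the authors' deposited table. Transcripts encoded in the mitochondria were not analysed here.

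**Figure D5:**
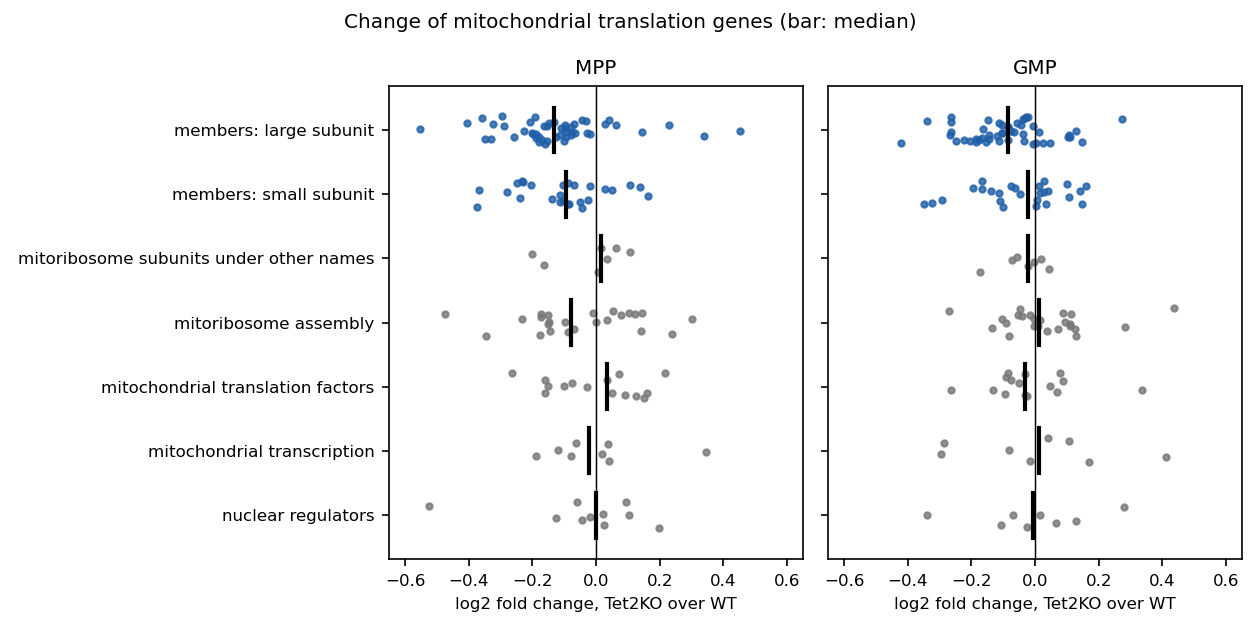
Log2 fold change of Tet2KO over WT in MPP (left) and GMP (right) for the members by subunit (blue) and for 5 lists of related genes (grey), with a bar at each median; vertical scatter is for display. The medians of large- and small-subunit members lie at -0.13 and -0.10 in MPP, farther below 0 than each of the 5 lists, and at -0.09 and -0.02 in GMP, where the small-subunit median lies among those of the lists (-0.03 to 0.01).

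The closest families by function lay on the same side. Of the tested cytosolic ribosomal protein genes, 77 of 79 lay below 0 in MPP (median -0.19) and 62 of 82 in GMP (median -0.08). Of them 1 (1.27%) was called in MPP, against 0.616% of all tested genes, and 4 (4.88%) in GMP, against 3.96%. Of the nuclear genes of the oxidative phosphorylation complexes, which pair with the products of mitochondrial translation, 71 of 77 lay below 0 in MPP (median -0.21) and 66 of 78 in GMP (median -0.12). Of them 0 were called in MPP and 8 (10.3%) in GMP, against the same backgrounds. The mitochondrial ribosomal genes had medians of -0.11 and -0.08, closer to 0 than the oxidative phosphorylation genes in both populations. No difference between the families was tested, and their SEs differ with their means: the cytosolic genes had a median mean of 2469 in MPP, against 181 for the members. Both other families also have short exons. Median exon lengths in MPP were 1770 bases for the cytosolic genes, 1756 for the oxidative phosphorylation genes and 2214 for the members. The part of length in the shared direction was not tested.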

How the data were processed

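Total RNA (2 ng per library, amplified) had been sequenced as single-end reads of 75 bases, per the labels' protocols. The submitters' processing notes name STAR, the build mm10 and DESeq2. Versions of these tools, the read counter and its gene models were not given in the sources used here. Each gene's mean is a normalized signal over all libraries of a population, as deposited by the authors. The log2 fold changes, their SEs and the p-values with their adjusted values are the authors' own, per the file headers. Recomputed two-sided normal p-values and Benjamini-Hochberg values over tested genes (mean of at least 10, no outlier) matched the deposited ones. No SE exceeded 0.388 in MPP or 0.359 in GMP, even at low means. Shrinkage towards 0 gives such a pattern, and it would understate the fold changes of weakly expressed members. Replicates are separate mice, per the labels' protocols.

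The members and lists were chosen with earlier results of these data known, and no list was tested as a set. Counts, medians, windows of similar mean (5th to 95th percentile of the members) and the difference between populations were computed with pandas 2.3.3, numpy 2.4.6 and scipy 1.17.1 (Python 3.11.15; plots in matplotlib 3.10.9), after the calls and the difference test had been tested on simulated data. The simulated errors were independent and had the spread that the SEs give. They did not cover shared mice or the wider spread of the statistic in these data. Exon lengths and neighbours come from GENCODE vM21 (mm10), which matched 99.1% of tested symbols, and promoters from RefSeq (mm10). Named genes were the called members, the 5 per direction of smallest p, the 5 highest and 5 lowest in mean, the 3 per direction of largest difference, the stalk and S18 genes, and the 3 of smallest p and every called gene of each pathway list; members at the ends of the levels per kilobase and others are named as values. Alternatives were other thresholds, an empirical null, recentring, other filters and other comparison genes. All columns were used for the comparison they hold, and 0 columns of values per sample were present among those given here.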

Additional observations from a re-analysis of the deposited data

How the results depend on the processing

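Of 69 recomputed values, 65 kept their direction and, where there was one, their side of the threshold, among them every share of members below 0 and every median in both populations. The exceptions were counts of members called in GMP (1 as reported, Mrpl18): 2 at an adjusted p of 0.1 (with Mrpl2), 0 at 0.01, 0 with an empirical null and 0 among members without shared exon bases, an alternative chosen after seeing the data that leaves Mrpl18 out. Some of the 65 could not have changed. No member has a name ending in -ps, so leaving out such names removed none. Every member had been tested, so adding outlier and low genes left the members' own shares and medians as they were. The medians of level per kilobase have no threshold to keep. The adjusted p of Mrpl18 in GMP was 0.375 with the empirical null, 0.0151 after recentring, 0.0137 with a mean of at least 50 and 0.0255 adjusted over every gene with a p-value. The empirical null, which divides by the robust spread of the statistic (1.15 in MPP, 1.35 in GMP), left 18 of 73 calls over all genes in MPP and 72 of 456 in GMP. For the difference between populations, errors set as correlated at 0.346 gave 49 calls over all genes in place of 8, and 0 members in either. That value is the correlation over genes of the statistic in MPP with that in GMP. It holds shared changes as well as shared errors, so it does not measure the effect of shared mice. No paired analysis was possible because the tables hold no values per library, and for the same reason leaving out each replicate, another normalization and another count tool were not run. Depth per library is unknown, and the SE limits detection: in MPP a change below 0.42 could not be called even at the family's smallest SE.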
